A study of Saccharomyces cerevisiae with 8 samples.

Results

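The genes described here are the budding yeast (Saccharomyces cerevisiae) ribosome biogenesis factors whose names are UTP, NOP, RRP or NOC followed by a number. The name alone chose them, and 50 of the 6547 features in the deposited table carry such a name: 16 UTP, 15 NOP, 3 NOC and 16 RRP genes. Messenger RNA was sequenced from a strain with the genotype mec1 (WFA73), for which the labels give no allele, and from a wild-type strain (WT, WFA72). MEC1 encodes the checkpoint kinase that is the yeast counterpart of ATR. Each strain was sampled in alpha factor, the mating pheromone that holds cells in G1 (G1), and after 1 h with 200 mM hydroxyurea, an inhibitor of ribonucleotide reductase that slows DNA synthesis (HU). The remaining samples of each strain were taken 30 min (R30) or 60 min (R60) after the drug had been filtered away and replaced by fresh medium. There was 1 library for each strain and time, 8 in all, so no group has replicates.

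Ribosome biogenesis factors assemble on the ribosomal RNA precursor in the nucleolus. The UTP factors belong to the small subunit processome, the particle that forms on the nascent precursor with the U3 snoRNA and leads to the small subunit. Many NOP (nucleolar protein), NOC (nucleolar complex) and RRP (ribosomal RNA processing) proteins act on the large subunit precursor, and several RRP proteins are subunits of the exosome, the complex that trims and degrades RNA from its 3′ end. In budding yeast these genes are known as a coregulated group that follows nutrient supply and stress. The PAC and RRPE elements in their promoters are bound by the repressors Dot6 and Tod6 and by Stb3.

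Names and roles overlap only in part. By role, 23 of the 50 genes act on the small subunit, 7 of them not named UTP. Another 14 act on the large subunit and 7 are exosome subunits. Of the remaining 6, 2 (RRP5 and RRP12) serve both subunits, 3 (NOP1, NOP10 and NOP58) are proteins of the small nucleolar ribonucleoproteins, and NOP13 is a nucleolar RNA-binding protein. Another 6 genes with such a name in RefSeq are listed under an older name in the table, NOP56 (as SIK1) among them, and were left out by the name rule. None of the 50 genes has an intron in the RefSeq annotation of the R64 assembly.

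The promoters are shown because both elements are far more frequent in front of these genes than across the genome. Each was read by gene name from RefSeq R64, from 250 bases before to 50 bases after the first base of the start codon, and all 50 genes matched. Capitals mark the searched letters, the PAC core GATGAG or its reverse complement and the RRPE core AAAATTTT, which is its own reverse complement. The 2 cores share no end letters, so a match to one cannot overlap a match to the other, and both strands were searched. UTP22, the gene that passed the test in hydroxyurea, holds neither core, and NOP58 and NOC3 hold both within a few bases of each other. NOP1 holds both far upstream.
UTP22 (chrVII:662108-662407, plus strand): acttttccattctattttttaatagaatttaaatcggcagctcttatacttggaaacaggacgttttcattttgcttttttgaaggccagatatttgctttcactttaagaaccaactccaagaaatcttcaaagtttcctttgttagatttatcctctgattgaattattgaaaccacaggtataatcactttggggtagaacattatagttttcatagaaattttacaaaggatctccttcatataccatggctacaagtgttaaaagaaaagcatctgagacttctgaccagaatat
NOP58 (chrXV:898311-898610, minus strand): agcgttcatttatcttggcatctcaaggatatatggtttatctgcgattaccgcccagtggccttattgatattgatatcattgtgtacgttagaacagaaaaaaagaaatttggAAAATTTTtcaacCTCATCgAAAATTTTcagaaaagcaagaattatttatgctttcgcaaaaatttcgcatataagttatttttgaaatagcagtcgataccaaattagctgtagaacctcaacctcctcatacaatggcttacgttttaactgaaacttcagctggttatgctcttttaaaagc
NOC3 (chrXII:156285-156584, minus strand): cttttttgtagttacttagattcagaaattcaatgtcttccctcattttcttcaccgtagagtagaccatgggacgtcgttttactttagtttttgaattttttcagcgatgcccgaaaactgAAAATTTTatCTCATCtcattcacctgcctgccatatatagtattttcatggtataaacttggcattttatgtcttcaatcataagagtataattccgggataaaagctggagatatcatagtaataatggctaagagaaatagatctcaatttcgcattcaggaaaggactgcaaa
NOP1 (chrIV:427114-427413, plus strand): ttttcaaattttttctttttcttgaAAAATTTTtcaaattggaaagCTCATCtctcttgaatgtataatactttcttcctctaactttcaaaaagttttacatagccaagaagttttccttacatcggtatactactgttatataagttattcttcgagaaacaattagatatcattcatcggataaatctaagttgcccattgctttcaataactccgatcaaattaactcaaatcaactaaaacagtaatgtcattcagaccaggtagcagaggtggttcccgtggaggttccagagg

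The PAC core occurred in 41 of the 50 promoters (82%), against 1222 of 6001 promoters of the same length in the genome (20.4%). The RRPE core occurred in 30 of 50 (60%), against 542 of 6001 (9.03%), and both together in 26 of 50 (52%), against 263 of 6001 (4.38%). Ribosomal protein genes, which are regulated by other factors, held the PAC core in 15 of 137 promoters (10.9%) and the RRPE core in 9 (6.57%). UTP genes and the others differed little in this. The PAC core was present in 13 of 16 UTP promoters and in 28 of 34 others, and the RRPE core in 11 of 16 and 19 of 34. The exosome genes stood lower, with the PAC core in 3 of 7, the RRPE core in 1 of 7 and both in 0 of 7. The PAC core nearest the start codon lay a median of 110.5 bases before it (range 1 to 222, 40 genes), and the RRPE core a median of 129 bases before it (range 33 to 225, 30 genes). In 22 of the 25 genes with both before the start codon, RRPE lay farther upstream than PAC. A match is a description of letters, not evidence of binding.

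Values are given in RPM, read counts scaled to the size of the library, as the mean over sequence windows that touch the gene. The number of windows listed for each feature fitted an arrangement in which the windows cover the gene body and 1000 bp on either side, for 6316 of 6547 features and all 50 genes here, so a deposited value also holds RNA of neighbouring genes on either strand. From the overlaps, the share that came from the gene itself was estimated at a median of 72.4%, with a range of 0% for RRP14 to 98.3% for UTP30. For many results a neighbour-separated value is given as well, which is the RNA of the gene alone in RPM per kb as estimated by least squares from all features. This could be done for 49 genes, while RRP14, which overlaps the reading frame YKL083W, got a separated value of 0 in all libraries and was left out. Libraries held 2441751 to 3935979 reads in the mec1 strain and 1596132 to 3101748 in WT. The 50 genes lay between 37.3 and 651 RPM in all libraries, and 95% counting intervals are given where a difference is between single libraries. They take the mean number of reads per window as the count, neighbours included. They cover counting error only, without molecular identifiers, and not the spread between cultures. State markers moved with the labelled times in both strains: AGA1, a pheromone-induced adhesion gene, was at 65.0 RPM in HU and 1076 RPM in G1 in the mec1 strain, and at 45.9 RPM in HU and 1291 RPM in G1 in WT. RNR2, which checkpoint kinases induce when replication stalls, reached 310.4 RPM in the HU library of the mec1 strain and 2069 RPM in that of WT. The MEC1 gene itself was listed at 76.6 to 124 RPM in the mec1 libraries and 35.7 to 90.3 RPM in WT. Its neighbour-separated level was far lower, at 8.69 to 10.7 RPM per kb in the mec1 libraries and 0 to 1.99 in WT. As the labels name no allele, neither value checks the genotype.

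Per length, the most abundant mRNAs of the group were NOP10, a small core protein of the box H/ACA particles that guide pseudouridylation, at 1247 ± 160.2 RPM per kb, and NOP1 (fibrillarin), the methyltransferase of the box C/D particles, at 1048 ± 118 RPM per kb (neighbour-separated level, mean ± SD over the 8 libraries). A wide gap followed. NOP7, a large subunit factor of the pescadillo family, was next at 358 ± 42.2 RPM per kb, and UTP30 was the highest UTP gene at 339 ± 48.9 RPM per kb, which does not differ from NOP7 beyond their spread. The lowest were NOP8 at 35.9 ± 4.69 and UTP20, a very large protein of the small subunit processome, at 23.7 ± 5.84 RPM per kb. In the mec1 strain the median UTP gene stood at 107, 86.6, 89.7 and 87.8 RPM per kb in G1, HU, R30 and R60, and in WT at 104, 83.9, 96.1 and 93.2. The median of the resolved NOP, NOC and RRP genes was higher in every library, at 162, 145, 139 and 120.05 RPM per kb in the mec1 strain and 159.7, 122, 146 and 139 in WT.

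**Figure D1:**
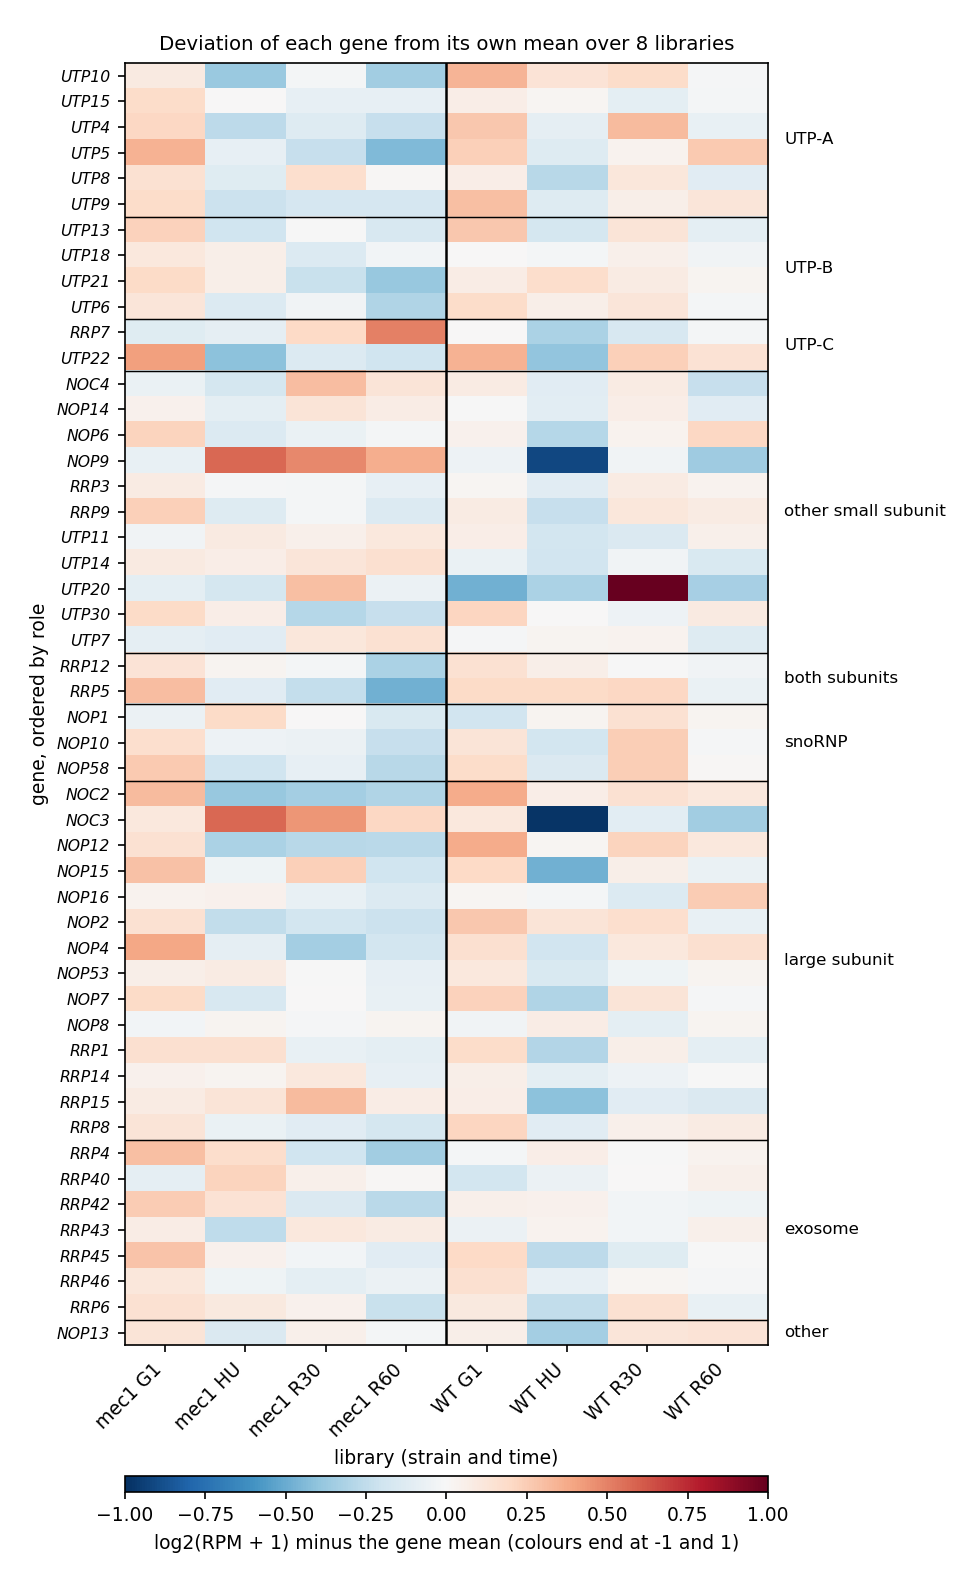
Colour shows the log2 deviation of each of the 50 genes from its own mean over the 8 libraries (deposited RPM), with genes down the page by role and the libraries across, mec1 left of WT. Most genes lie above their mean in the G1 columns, and NOC3 and NOP9 stand out by their opposite colours in mec1 HU and WT HU.

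In hydroxyurea the group as a whole stood slightly below its level in G1. In an additive model of time and strain over the 8 libraries (limma, log2(RPM + 1)), 45 of the 50 fitted HU minus G1 changes lay below 0, against 52.6% of the 6504 features tested, with a median of −0.20 against −0.02 for all features. Few genes passed the test. At an adjusted p under 0.05, 1 of the 50 genes was lower and 0 were higher, where 4.52% of all features were lower and 4.57% higher, so the count of calls is no larger than the background. At an unadjusted p under 0.05 there were 15 of 50, against 31.2% of all features. In bulk RNA, fewer cells of a kind and less RNA per cell cannot be told apart. The fit has 1 library for each combination and 3 residual degrees of freedom, so its p-values measure how unevenly the strains moved and not the spread between cultures.

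The gene that fell was UTP22, which with RRP7 and casein kinase subunits forms the UTP-C subcomplex of the small subunit processome. UTP22 lies on chromosome VII and contributed 91.7% of its own value. It was at 118, 66.4, 80.9 and 77.2 RPM in mec1 G1, HU, R30 and R60, and at 113, 67.5, 105 and 98.4 RPM at the same times in WT. HU was the lowest time in both strains, and both HU values lay below the other 6 values. The fitted HU minus G1 change was −0.78 on the log2 scale (SE 0.15, limma, Benjamini-Hochberg adjusted p = 0.0310). Between single libraries the change was −0.82 (95% counting interval −1.07 to −0.57) in the mec1 strain and −0.74 (−1.06 to −0.42) in WT, and neighbour-separated values gave −0.85 and −0.72 in the same order of strains. With neighbour-separated values in the model the adjusted p was 0.0899, and with only the 4 libraries compared it was 0.0617, and leaving out any library other than the 2 at R60 gave adjusted p-values up to 0.162, so the call rests on the deposited values and on nearly all of the libraries. Its partner RRP7, on chromosome III, was at 123, 125, 153 and 189.6 RPM over the mec1 times and 133, 107, 119 and 132 RPM over the WT times. RRP7 was highest at mec1 R60, where its neighbour HIS4, a histidine synthesis gene 366 bp away, was at 372 RPM, against 160.1 RPM at WT R60. The neighbour-separated R60 minus G1 change of RRP7 was 0.08 in the mec1 strain and −0.06 in WT.

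**Figure D2:**
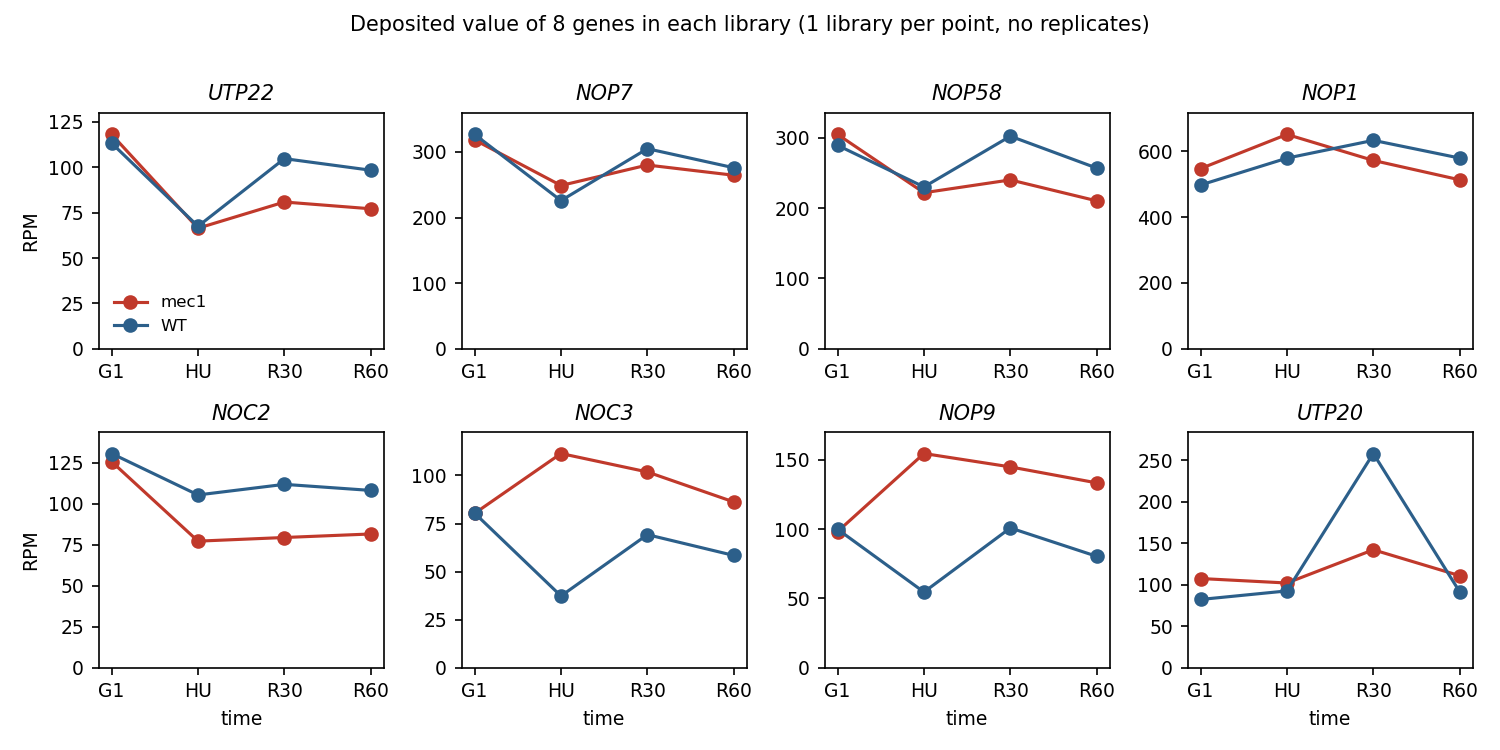
Deposited RPM of 8 genes over G1, HU, R30 and R60, mec1 in red and WT in blue, 1 library per point. UTP22, NOP7 and NOP58 are lower in HU than in G1 in both strains, NOP1 is higher, NOC3 and NOP9 are highest in HU in mec1 and lowest in HU in WT, and UTP20 peaks at WT R30 together with its histone neighbour.

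The UTP-A subcomplex, which binds the 5′ end of the precursor first, is represented by UTP4, UTP5, UTP8, UTP9, UTP10 and UTP15. All 6 were below G1 in HU in each strain, with a median of −0.42 in the mec1 strain and −0.35 in WT, though none passed the test. UTP4 (chromosome IV) was at 101, 72.3, 79.6 and 73.8 RPM over the mec1 times and 105, 81.6, 108 and 82.4 RPM over the WT times, with a fitted HU minus G1 change of −0.41. Its R30 value was below G1 in the mec1 strain and slightly above G1 in WT. UTP10 (chromosome X) was at 74.3, 53.6, 69.0 and 54.5 RPM in the mec1 strain and at 88.7, 76.7, 79.6 and 69.3 RPM in WT. UTP5 (chromosome IV) was at 207, 154, 138 and 119.7 RPM in the mec1 strain and 192, 149, 166 and 196 RPM in WT. Part of the UTP5 course was shared with HPT1, a purine salvage gene 666 bp away, which was at 287, 152, 153 and 134 RPM in the mec1 strain and 249, 137, 195 and 252 RPM in WT. Once separated from its neighbours, UTP5 differed less between HU and G1, by −0.17 in the mec1 strain and −0.13 in WT. UTP9 differed by −0.40 in the mec1 strain and −0.43 in WT, and UTP8 by −0.27 and −0.34, so their changes were of similar size in both strains. UTP15 had the smallest range of the 6, between 88.2 and 108 RPM in all 8 libraries.

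The UTP-B subcomplex, which joins UTP-A and the U3 particle, gave smaller differences. Its 4 genes UTP6, UTP13, UTP18 and UTP21 had a median HU minus G1 change of −0.19 in the mec1 strain and −0.08 in WT. UTP13 came nearest to a call, with a fitted change of −0.44 (limma, adjusted p = 0.0587), and is named here after its value was seen. It was at 113, 83.4, 95.8 and 85.6 RPM over the mec1 times and 116, 84.7, 105 and 89.4 RPM over the WT times, lowest in HU in both, with 40.5% of the value its own. UTP6 was the lowest of the 4, between 42.0 and 56.7 RPM in the mec1 strain and between 51.2 and 59.3 RPM in WT. As deposited, with 48.9% of the value its own, UTP6 was below WT in the mec1 library at each of the 4 times. Its separated level was 44.4, 38.3, 47.8 and 31.4 RPM per kb over the mec1 times. Over the WT times that level was 43.5, 46.9, 46.3 and 36.8, so in G1 and at R30 mec1 was slightly above WT. UTP18 (chromosome X) was at 101, 97.8, 85.2 and 92.2 RPM over the mec1 times and 94.0, 92.2, 97.1 and 91.3 RPM in WT. UTP21 (chromosome XII) was at 101, 92.1, 75.5 and 67.9 RPM in the mec1 strain and 92.9, 100.1, 93.6 and 90.0 RPM in WT. Its mec1 values at R30 and R60 lay below all 4 WT values.

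The other 11 small subunit factors had a median HU minus G1 change of −0.10 in the mec1 strain and −0.20 in WT. With neighbours separated these medians were −0.25 and −0.48 in the same order of strains. In WT, UTP20 (chromosome II) differed most of these between the deposited and the separated scale. Its deposited values were 108, 102, 142 and 111 RPM over the mec1 times and 82.4, 92.7, 258 and 91.6 RPM over the WT times, a WT peak at R30. The histone H2A gene HTA2, 277 bp away, was at 105, 149, 210.1 and 168 RPM in the mec1 strain and 60.8, 144, 428 and 115 RPM in WT. Only 44.8% of the UTP20 value came from UTP20, and its separated level was 30.6, 18.9, 25.7 and 20.7 RPM per kb in the mec1 strain and 28.6, 13.9, 29.3 and 21.7 RPM per kb in WT. On that scale UTP20 was lowest in HU in both strains, a change of −0.67 in the mec1 strain and −0.99 in WT against G1. NOC4 (chromosome XVI), the partner of NOP14, was at 80.7, 74.6, 105 and 92.3 RPM in the mec1 strain and 89.3, 77.8, 89.3 and 72 RPM in WT. NOC4 was highest at mec1 R30 and lowest at WT R60. RRP3 (chromosome VIII), a DEAD-box helicase, ranged from 174 to 196 RPM in the mec1 strain and from 170.0 to 196 RPM in WT. RRP9, a protein of the U3 particle with 90.1% of its value its own, was at 90.7, 70.1, 75.6 and 69.8 RPM over the mec1 times and 81.2, 65.2, 82.8 and 81.2 RPM over the WT times. At R30 and R60 it was below the G1 level in the mec1 strain and at or above it in WT. The separated HU minus G1 change of RRP9 in WT was −0.82, against −0.31 as deposited. RRP9 overlaps the reading frame YPR136C, which got a separated level of 0 RPM per kb in WT G1 and 61.1 in WT HU. The deposited value of YPR136C was 91.7 RPM in WT G1 and 76.9 RPM in WT HU. How well the estimate divides the RNA of these overlapping frames was not tested. NOP6, with 48.0% of its value its own, differed between HU and G1 by −0.36 in the mec1 strain and −0.33 in WT, and by −0.98 and −0.69 once separated. UTP30 differed by −0.13 in the mec1 strain and −0.21 in WT, NOP14 by −0.14 and −0.10, and UTP14, the activator of the helicase Dhr1, by −0.02 and −0.13. UTP11 differed by 0.13 in the mec1 strain and −0.25 in WT, and UTP7 by −0.02 and 0.04, all with counting intervals that hold 0 for these 2 genes. Next to UTP7 lies the serine synthesis gene SER3, which was at 123 RPM in HU and 84.4 RPM in G1 in the mec1 strain and at 157 RPM in HU and 85.5 RPM in G1 in WT, and the separated change of UTP7 was −0.43 in the mec1 strain and −0.80 in WT.

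NOP9 (chromosome X), a Pumilio-like RNA-binding protein of the small subunit pathway, was higher in HU than in G1 in the mec1 strain and lower in WT. It was at 98.3, 155, 145 and 133 RPM over the mec1 times and 99.9, 54.6, 101 and 80.4 RPM over the WT times. The strains were level in G1, and at all 3 later times the mec1 value was above every WT value. The HU minus G1 change was 0.65 (95% counting interval 0.45 to 0.85) in the mec1 strain and −0.86 (−1.21 to −0.51) in WT. Its neighbour CCT8, a chaperonin subunit gene 395 bp away, was at 156, 267, 254 and 242 RPM in the mec1 strain and 147, 88.4, 161 and 128 RPM in WT, the same course, and only 35.4% of the NOP9 value was estimated as its own. The neighbour-separated change of NOP9 was 0.47 in the mec1 strain and −0.99 in WT. How far the neighbour makes this difference was not tested beyond that estimate.

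The genes of the box C/D and H/ACA proteins did not all move the same way, and the split was not between the particle classes. NOP1 (chromosome IV) was at 548, 651, 572 and 513 RPM over the mec1 times and 498, 579, 633 and 579 RPM over the WT times, higher in HU than in G1 in both strains. The change was 0.25 (95% counting interval 0.16 to 0.34) in the mec1 strain and 0.22 (0.10 to 0.34) in WT, with a fitted value of 0.23 that did not pass the test (limma, adjusted p = 0.288). NOP58 (chromosome XV), its partner in the same particle, went the other way. It was at 305, 222, 240.3 and 210.4 RPM in the mec1 strain and 289, 230.3, 302 and 257 RPM in WT, with a fitted HU minus G1 change of −0.39 (SE 0.14, limma, adjusted p = 0.113). The NOP58 value at R30 was below G1 in the mec1 strain and above G1 in WT. NOP58 overlaps the dubious reading frame YOR309C, and its own share was 56.1%. Both NOP1 and NOP58 hold the PAC and RRPE cores in the promoters printed above. NOP10 (chromosome VIII) was at 349, 301, 298 and 265 RPM in the mec1 strain and 340.4, 274, 369 and 309 RPM in WT, with a WT maximum at R30 that the mec1 strain did not show.

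RRP5, an RNA-binding protein, and RRP12, an export factor, are needed for both subunits. RRP5 (chromosome XIII) was at 106, 78.7, 72 and 60.7 RPM over the mec1 times and 97.3, 97.1, 98.1 and 81.0 RPM over the WT times. Each mec1 value after G1 was below every WT value. RRP12 (chromosome XVI) was at 207, 192, 186 and 151 RPM in the mec1 strain and 209.7, 196, 188 and 184 RPM in WT, with mec1 R60 the lowest of the 8. The HU minus G1 change was −0.42 in the mec1 strain and 0.00 in WT for RRP5, and −0.11 and −0.10 for RRP12, with neither called. NOP13 (chromosome XIV), the RNA-binding protein outside these classes, was at 143, 118, 135 and 129 RPM in the mec1 strain and 136, 103, 142 and 144 RPM in WT, lowest in HU in both.

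Among the 14 large subunit factors, 13 fitted HU minus G1 changes lay below 0, with a median of −0.26, and none passed the test. NOC2 (chromosome XV), which pairs in turn with Noc1 and Noc3 on the precursor, had a fitted change of −0.50 (SE 0.14, limma, adjusted p = 0.0740). It was at 126, 77.3, 79.5 and 81.7 RPM over the mec1 times and 131, 106, 112 and 108 RPM over the WT times. The 3 later mec1 values lay below all 4 WT values. NOP7 (chromosome VII) was at 318, 249, 280.0 and 264 RPM in the mec1 strain and 327, 226, 305 and 276 RPM in WT, lowest in HU in both, with a fitted change of −0.44 (SE 0.12, limma, adjusted p = 0.0628). NOP7 contributed 96.1% of its own value, so the neighbours hardly enter. NOP2 (chromosome XIV), a methyltransferase of the large subunit RNA, was at 138, 104, 109 and 106 RPM in the mec1 strain and 149.6, 136, 139 and 117 RPM in WT. NOP2 was below its G1 value at every later time in both strains. RRP15 (chromosome XVI) was at 121, 124, 142 and 119.8 RPM in the mec1 strain and 119, 85.1, 105 and 103 RPM in WT. RRP15 had its lowest value in WT HU. NOP8 (chromosome XV) stayed between 60.8 and 68.7 RPM in every library while its gene RNA, 38.2% of the value, was estimated to differ by −0.45 in the mec1 strain and −0.36 in WT between HU and G1. RIB4, 43 bp from NOP8, was higher in HU than in G1, at 127 and 97.3 RPM in the mec1 strain and 118 and 89.9 RPM in WT.

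Some of the other large subunit factors were lower in HU in both strains, and some in WT with little difference in the mec1 strain. NOP15 differed between HU and G1 by −0.33 (95% counting interval −0.49 to −0.18) in the mec1 strain and −0.67 (−0.89 to −0.45) in WT, with a fitted change of −0.50 like that of NOC2. NOP4 differed by −0.48 in the mec1 strain and −0.35 in WT, and the methyltransferase gene RRP8 by −0.19 and −0.33. RRP1 differed by 0.00 in the mec1 strain and −0.48 (−0.68 to −0.27) in WT, and NOP53, which brings the exosome to the large subunit precursor, by 0.02 and −0.26. NOP16 differed by 0.01 in the mec1 strain and −0.04 in WT as deposited, and by −0.25 and −0.65 once separated. PMI40, a mannose metabolism gene 238 bp from NOP16, was at 249.99 RPM in HU and 138 RPM in G1 in the mec1 strain and at 286 RPM in HU and 126 RPM in G1 in WT. NOP12 differed by −0.47 in the mec1 strain and −0.35 in WT, but 10.3% of its value was its own beside the ribosomal protein gene RPS15, and its separated changes were −0.64 and −1.51. RRP14, which has no separated value, differed by −0.02 in the mec1 strain and −0.15 in WT.

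NOC3 (chromosome XII), the Noc2 partner that has also been linked to replication origins in yeast, differed most between the strains in HU. It was at 80.3, 111, 102 and 86.2 RPM over the mec1 times and 80.4, 37.3, 69.2 and 58.4 RPM over the WT times. The strains were level in G1, and mec1 HU exceeded WT HU by 1.55 on the log2 scale (95% counting interval 1.15 to 1.95). The neighbouring YLR003C, 521 bp away, again ran the same way, at 83.9, 152, 156 and 122 RPM in the mec1 strain and 91.4, 52.0, 98.1 and 79.6 RPM in WT. NOC3 itself made up an estimated 64.2% of its value, and the neighbour-separated HU minus G1 change was 0.28 in the mec1 strain and −1.38 in WT.

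**Figure D3:**
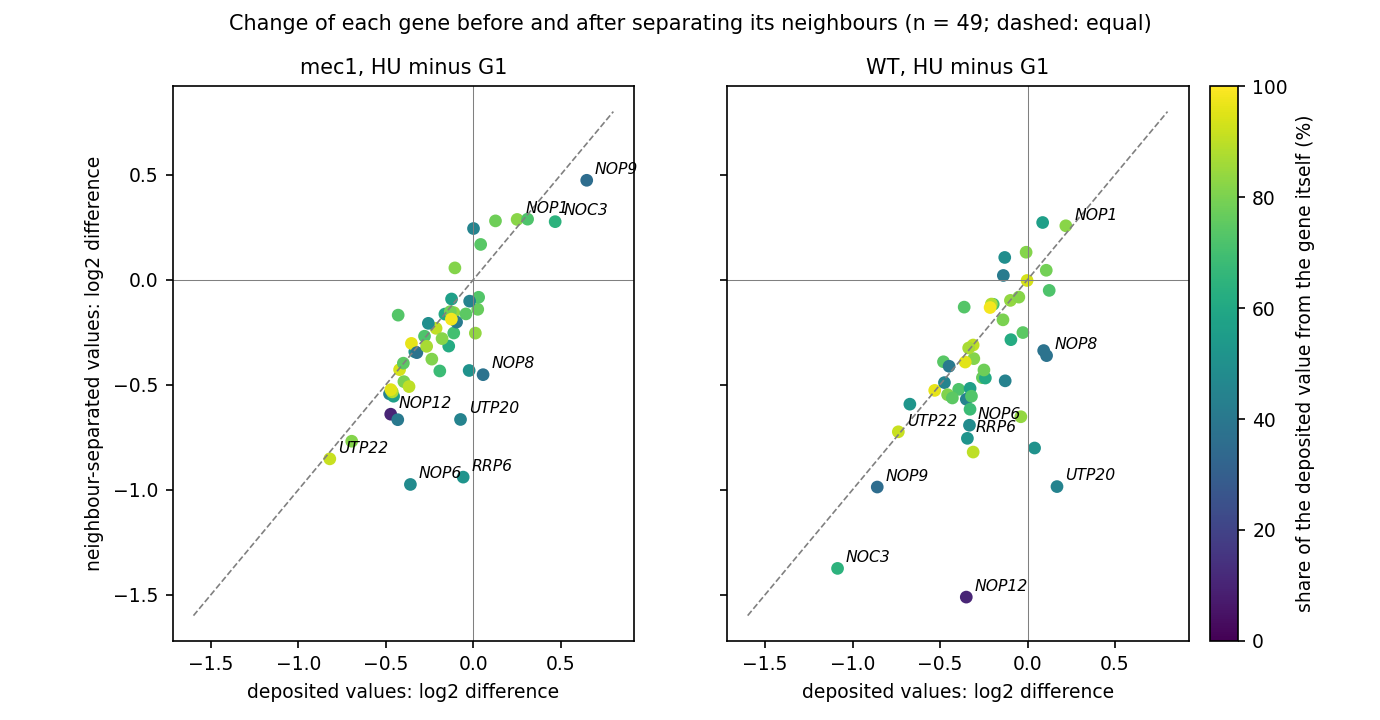
Each point is 1 of 49 genes, with the deposited HU minus G1 log2 change on the x axis and the neighbour-separated change on the y axis, mec1 on the left and WT on the right, coloured by the percent of the value from the gene itself. UTP22 (91.7%) lies near the diagonal in both strains. UTP20 (44.8%) and RRP6 (51.6%) lie below it, and so do RRP9 (90.1%) and NOP16 (83.6%) in WT.

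The fitted HU minus G1 changes of the 7 exosome genes had a median of −0.12, with 6 of 7 below 0 and none called. RRP4 (chromosome VIII), an RNA-binding cap subunit, was at 186, 171, 131 and 119 RPM over the mec1 times and 149, 158, 150.4 and 155 RPM over the WT times. The deposited WT level hardly varied and the 2 mec1 recovery values lay below it. The own share of RRP4 was 56.2%, and DYS1, 283 bp away, was at 305, 284, 206 and 194 RPM in the mec1 strain. Separated, RRP4 was at 162, 152, 125 and 107 RPM per kb in the mec1 strain. In WT it was at 115, 139, 129 and 131, so mec1 R30 was above WT G1. RRP46 (chromosome VII), a subunit of the ring, was at 174, 156, 150.1 and 154 RPM in the mec1 strain and 180.0, 152, 163 and 159 RPM in WT. RRP6 (chromosome XV), the nuclear 3′ exonuclease, was at 78.0, 74.9, 72.2 and 60.0 RPM in the mec1 strain and 74.9, 58.8, 77.8 and 66.3 RPM in WT. Its separated level was 64.2, 33.0, 51.9 and 39.1 RPM per kb in the mec1 strain and 65.6, 38.4, 72.5 and 50.8 RPM per kb in WT, lowest in HU in both. RRP45 differed between HU and G1 by −0.24 in the mec1 strain and −0.46 in WT, RRP42 by −0.11 and −0.01, and RRP43 by −0.32 and 0.09. Separated from its neighbours, RRP43 differed by −0.35 in the mec1 strain and −0.34 in WT. RRP40, the other cap subunit of this group, was higher in HU in both strains as deposited, by 0.31 (95% counting interval 0.10 to 0.52) in the mec1 strain and 0.12 (−0.17 to 0.41) in WT. Once separated, RRP40 differed by −0.05 in WT, and in the mec1 strain it was at 176 RPM per kb in HU and 144 in G1. Beside RRP6, ALG6, 384 bp away, was at 192 RPM in mec1 HU and 112 RPM in mec1 G1, and in WT at 111 RPM in HU and 102 RPM in G1.

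Set side by side, the single-library HU minus G1 changes had a median of −0.15 in the mec1 strain, with 39 of 50 genes below 0 (50% of all features), and of −0.25 in WT, with 42 of 50 below 0 (54.9% of all features). Large changes were rare. In the mec1 strain 2 of 50 genes were lower by 0.5 log2 or more (11.4% of all features) and 1 was higher by as much (16.1%), and in WT 5 were lower (13.5%) and none higher (14.5%). The typical counting half-width of a gene's change was 0.20 in the mec1 strain and 0.27 in WT. Neighbour-separated medians were further from 0, at −0.28 in the mec1 strain, with 41 of 49 below 0 (47.6% of all features), and −0.41 in WT, with 43 of 49 below 0 (51.3%). In both strains at once 34 of 50 genes were below G1 (68%, against 38.4% of all features). Gene by gene, the mec1 and WT changes had a Pearson r of 0.77 across the 16 UTP genes and of −0.16 across the 34 others. Across all 6504 features r was 0.64. This is a description across genes that are not independent replicates. NOC3 and NOP9 lie far from the rest of the others. With neighbours separated the values were r = 0.47 for the 16 UTP genes, r = 0.19 for 33 others and r = 0.54 for all features.

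At R30 the mec1 genes lay evenly on both sides of their HU level, and most WT genes lay above theirs. From single libraries, 25 of 50 genes were higher at R30 than in HU in the mec1 strain (56.3% of all features), with a median of 0.02, and 41 of 50 in WT (52.8% of all features), with a median of 0.16. The change was smaller in the mec1 strain than in WT for 38 of 50 genes, against 49.1% of all features, with a median difference of −0.20. Neighbour-separated values gave 38 of 49 genes (46.1% of all features) and a median difference of −0.26. Genes with a clear own signal did not all go this way. The R30 minus HU change of UTP22 was 0.28 in the mec1 strain and 0.63 in WT, that of NOP7 was 0.17 and 0.43, and that of NOP10 was −0.01 and 0.43. UTP10, with 88.0% of its value its own, went from 53.6 to 69.0 RPM in the mec1 strain and from 76.7 to 79.6 RPM in WT. UTP30, with 98.3%, fell in both strains, from 195 to 153 RPM in the mec1 strain and from 186 to 180 RPM in WT. In the additive fit none of the 50 genes was called in R30 minus HU (0.277% of all features higher and 0.584% lower, limma), with 6 at an unadjusted p under 0.05 (16.8% of all features). In R60 minus R30 neither any of the 50 nor any other feature was called (0% higher and 0% lower, limma), with 1 of the 50 at an unadjusted p under 0.05 (4.01% of all features). Whether the strains differ in recovery cannot be tested with 1 library each.

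**Figure D4:**
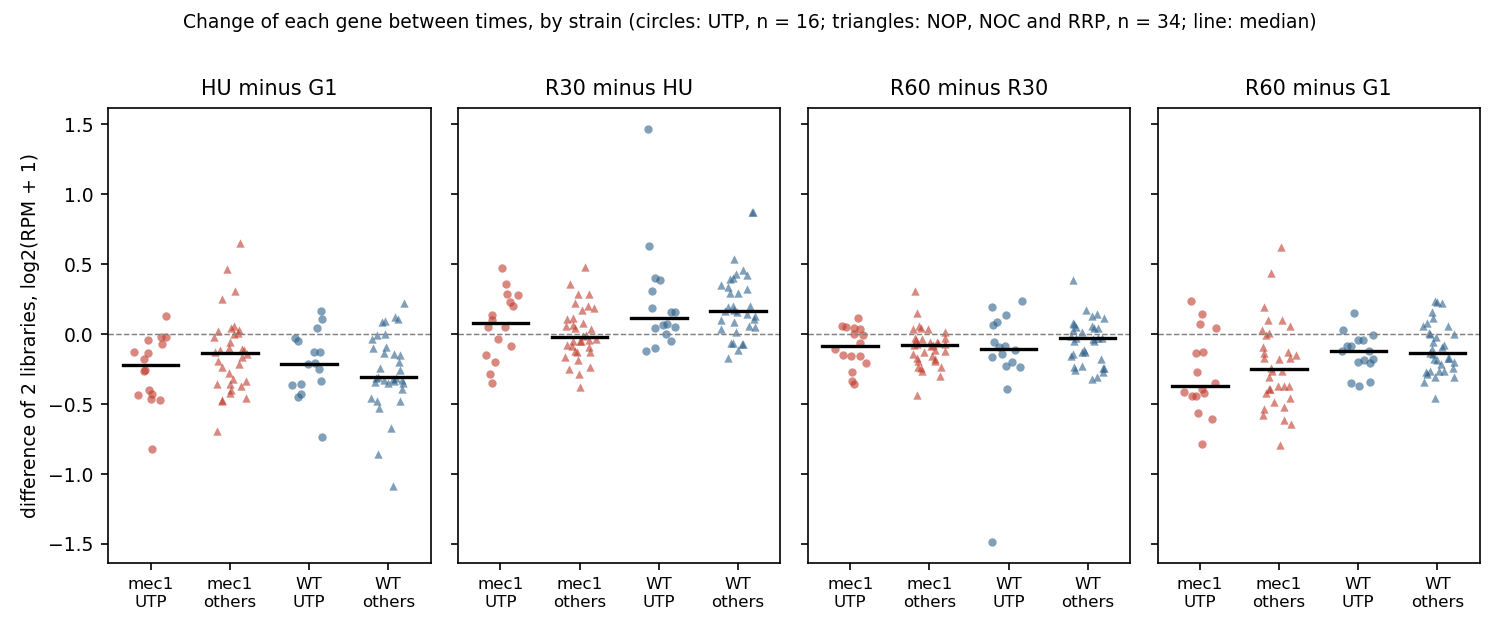
Log2 change of each gene for HU against G1, R30 against HU, R60 against R30 and R60 against G1 from single libraries, with mec1 in red left of WT in blue, circles for UTP genes, triangles for NOP, NOC and RRP genes and a black line at each median. In R30 minus HU the mec1 points are spread about 0 and the WT points lie mostly above 0.

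After 60 min without the drug most genes were still below G1, and the median was lower in the mec1 strain. The R60 minus G1 median was −0.27 in the mec1 strain, with 38 of 50 genes below 0 (46.6% of all features), and −0.13 in WT, also with 38 of 50 below 0 (53.5% of all features). In the mec1 strain 9 of 50 genes were lower by 0.5 log2 or more, against 9.04% of all features, and in WT none was, against 5.86% of all features. Neighbour-separated medians were −0.42 in the mec1 strain (43 of 49 below 0, 44.1% of all features) and −0.18 in WT (41 of 49, 51.1%). RRP5 differed by −0.79 (95% counting interval −1.03 to −0.55) in the mec1 strain and −0.26 in WT, RRP4 by −0.64 and 0.06, UTP21 by −0.57 and −0.05, and UTP22 by −0.61 and −0.20. These genes belong to different steps of both pathways. In the additive fit none of the 50 was called in R60 minus G1 (0.661% of all features higher and 0.923% lower, limma), with 12 at an unadjusted p under 0.05 (19.8% of all features) and 40 of 50 fitted changes below 0 (47.8% of all features).

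Compared directly, the strains were nearly level in G1 and HU, where mec1 minus WT had medians of 0.03 (22 of 50 below 0, 37.2% of all features) and 0.09 (18 of 50, 42.7%). At R30 the median was −0.11 with 31 of 50 below 0 (36.5% of all features), and at R60 it was −0.13 with 36 of 50 below 0 (39% of all features). Over all features the medians of mec1 minus WT were 0.06, 0.06, 0.13 and 0.10 over the same 4 times, so relative to the whole table the later differences are larger. No gene of the 50 was called in the additive mec1 minus WT contrast (0.169% of all features higher and 0.108% lower, limma), and 8 had an unadjusted p under 0.05 (27% of all features). Without the mec1 G1 library, and likewise without the WT G1 library, 2 of the 50 were called: NOP9, higher in the mec1 strain by 0.91 (limma, adjusted p = 0.0438 and 0.0437), and NOC2, lower, with a contrast of −0.44 (limma, adjusted p = 0.0456 and 0.0455). In those fits 10.2% and 10.3% of all features were called, a larger share than 2 of 50. They set the strains against each other over HU, R30 and R60 alone. At R60 the mec1 value was below the WT value by 0.40 in NOC2 and by 0.41 in RRP5, and above it by 0.72 in NOP9 and by 0.55 in NOC3.

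**Figure D5:**
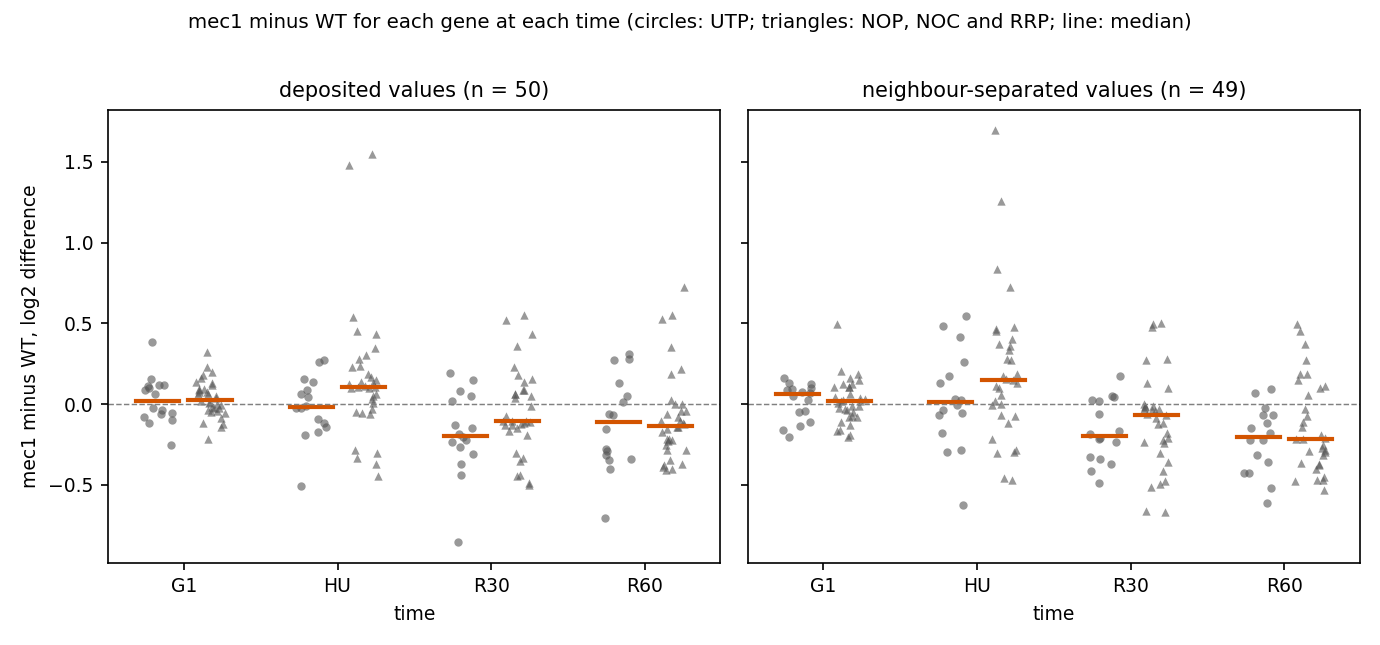
Log2 difference mec1 minus WT of each gene at G1, HU, R30 and R60. Deposited values of 50 genes are on the left and neighbour-separated values of 49 on the right. Circles are UTP genes, triangles are the others, and orange lines mark the median of UTP genes and that of the others. As deposited in HU, the UTP median lies slightly below 0 (−0.02) and that of the others above it (0.11). All other medians lie above 0 in G1 and HU and below 0 at R30 and R60, on both scales.

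UTP genes and the NOP, NOC and RRP genes had medians that lay close together in the fit. In the fit, HU minus G1 had a median of −0.18 over 16 UTP genes (14 below 0) and −0.21 over 34 others (31 below 0). The difference of UTP minus other medians was 0.03 both for HU minus G1 and for R30 against HU, 0.00 for R60 against R30 and −0.09 for R60 against G1. In the mec1 minus WT contrast it was −0.09. By role, the 23 small subunit factors had a median HU minus G1 change of −0.15 (21 below 0), and the 21 large subunit and exosome factors one of −0.22 (19 below 0). Within single strains, the UTP median was −0.22 in the mec1 strain and −0.21 in WT, and that of the others was −0.13 and −0.31. As deposited, the largest gap appeared at R60, where UTP genes stood at −0.37 in the mec1 strain and −0.12 in WT against G1, and the others at −0.25 and −0.14. With neighbours separated, these R60 medians were −0.50 and −0.18 for UTP genes and −0.27 and −0.22 for the others. In the mec1 strain 15 of 16 UTP genes and 28 of 33 others were then below G1 (44.1% of all features). The separated mec1 change was below the WT change in 15 of 16 UTP genes and 21 of 33 others (44.4% of all features). No test of these medians was made, as the genes are not replicates of a condition.

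The presence of promoter elements went with no clear difference in these changes. HU minus G1 had a median of −0.19 in the mec1 strain and −0.25 in WT over 41 genes with the PAC core, and of −0.13 and −0.26 over the 9 without it. As deposited, all 5 genes with neither core, UTP22 among them, were below G1 in HU in both strains (38.4% of all features). RRP42, 1 of the 5, differed by only −0.01 in WT, and once separated by 0.06 in the mec1 strain and 0.13 in WT.

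Many other ribosome biogenesis genes outside the name rule were below G1 in HU as well, and some passed the test. These are deposited values that include neighbours, and 4.52% of all features were called lower. Of 33 other small subunit processome factors 32 had a fitted HU minus G1 change below 0 (median −0.28), and 2 fell past the test: ENP2, by 0.56 (limma, adjusted p = 0.0413), and RIO2, the kinase of late small subunit maturation, by 0.71 (adjusted p = 0.0261). Of 48 other large subunit factors 44 were below 0 (median −0.33), and BRX1, LOC1, RLP7 and SPB4 fell, by 0.48 to 0.72 (limma, adjusted p = 0.0346 to 0.0493). Of 11 other snoRNP proteins 6 were below 0 (median −0.13), and NHP2 fell by 0.70 (limma, adjusted p = 0.0431) and the assembly factor RSA1 by 1.08 (adjusted p = 0.0167). All 10 other exosome and cofactor genes were below 0 (median −0.22) and none was called. Of 15 RNA polymerase I genes RPA14 rose by 0.68 (limma, adjusted p = 0.0183) and RPA34 fell by 0.53 (adjusted p = 0.0494), around a median of −0.15. Of 9 regulators DOT6, which binds the PAC core, rose by 0.52 (limma, adjusted p = 0.0491), around a median of 0.04. Of 137 ribosomal protein genes 15 fell and 133 had a fitted change below 0, with a median of −0.39, against −0.20 for the 50 genes here. The ribosomal protein genes were also lower in the mec1 strain at R30 and R60, with medians of −0.41 at both times for mec1 minus WT. None of the genes in these lists was called between R30 and HU, between R60 and R30 or between the strains, and RSA1 alone was called in R60 minus G1.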

How the data were processed

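Stranded mRNA libraries (TruSeq, 75 bp read pairs on MiSeq, hot phenol RNA) were made from 8 samples, per the labels. The authors deposited 1 table with a mean value per feature and library, and BWA and sacCer3 are named per the submitters' processing notes, without a version. A header of that table speaks of log2 RPKM, but the deposited values behave as RPM on a linear scale: multiplied by the number of windows they are whole multiples of the value of 1 read (largest deviation 0.000247 of a step), are not on a log scale and are not divided by length. The values were therefore tested as RPM and not as counts. limma 3.58.1 (R 4.3.3) was run on log2(RPM + 1) with time and strain as additive terms, so a fold change of a low gene is understated. Features with RPM of at least 1 in at least 2 libraries were kept (6504 of 6547). p-values were adjusted over all of them by Benjamini-Hochberg. On simulated data for HU minus G1 over 6504 genes, 100 of 100 genes changed by a log2 of 1 and 100 of 100 changed by 2 were recovered, with 6 false calls. The simulated noise was independent and of the same size for every gene, with no uneven movement of the strains. No smaller change was simulated, so the recovery does not show how often changes of the size seen here would be called. Other steps used Python 3.11.15 with scipy 1.17.1. Start and end positions in the deposited table equal those of RefSeq R64 for 985 of 6547 features, so genes are placed by chromosome alone and promoters were taken by name. Neighbour-separated values predicted the deposited spread between windows better than the deposited means did (r of 0.963 to 0.969 over libraries, against 0.919 to 0.931). A count test was not run, since a read in a window shared by neighbours enters several features. Named genes were those called, in each role the gene with the widest and the narrowest range over the libraries, the 3 with the highest and the 3 with the lowest mec1 minus WT difference in HU, and a fixed set that marks the roles, of which NOP56 is no member. The gene lists, members and roles were chosen with earlier results of these data known. Nothing in the labels says that the samples came from separate cultures, and the p-values measure only the spread among these libraries. Alternatives were no filter, a pseudocount, other scalings, neighbour-separated values, fewer libraries and leaving out each library.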

Additional observations from a re-analysis of the deposited data

Results flagged for a closer look

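The HU library lay on opposite sides of the G1 library in the 2 strains for 13 of the 50 genes (26%), no larger a share than the 28.1% of all features, and 7 of the 13 are among the 27 genes named by rule. The mec1 change minus the WT change in HU minus G1, on the log2 scale, was 1.55 for NOC3 (0.47 in the mec1 strain, −1.09 in WT) and 1.51 for NOP9 (0.65 in the mec1 strain, −0.86 in WT). It was 0.52 for RRP15, 0.35 for RRP7, −0.21 for RRP4, −0.24 for UTP20 and −0.24 for UTP21. Once separated from their neighbours, UTP20 (−0.67 in the mec1 strain, −0.99 in WT) and RRP7 (−0.08 in the mec1 strain, −0.56 in WT) lay on the same side of 0 in both strains. With 1 library per strain and time these differences were not tested. For NOC3 and NOP9 both single-library changes have counting intervals that leave out 0. The neighbours YLR003C and CCT8 were higher in HU than in G1 in the mec1 strain and lower in WT as well, and after their separation the difference was kept in sign, with changes of 0.28 in the mec1 strain and −1.38 in WT for NOC3 and of 0.47 in the mec1 strain and −0.99 in WT for NOP9.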

How the results depend on the processing

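The 1 call among the 50 genes in HU minus G1, UTP22, was kept with a pseudocount of 5, with no filter on low values, with a constant prior variance and with quantile normalization. The count was 0 with neighbour-separated values and 0 with only the 4 libraries compared. Leaving out 1 library at a time gave 0 to 1 calls, with 1 only without mec1 R60 or without WT R60. In those fits 45 to 447 of all features were called, against 591 with all 8 libraries, and UTP22 itself ranged from −0.93 to −0.63. In mec1 minus WT, leaving out 1 library at a time gave 0 to 2 calls. The 2, NOP9 and NOC2, came without mec1 G1 or without WT G1, where 666 and 672 of all features were called, against 18 with all libraries. The cause was not tested. In the comparisons of R30 with HU, R60 with R30 and R60 with G1 the count was 0 under every alternative run. No called value reversed its sign. Neighbour separation moved the HU minus G1 change by more than its counting half-width for 11 of 49 genes in the mec1 strain and 13 of 49 in WT, among them NOP6, NOP8, NOP12, NOP16, RRP6, UTP5, UTP7 and UTP20 in both strains. It put 5 genes in the mec1 strain and 8 in WT on the other side of 0, such as UTP20 (0.17 deposited, −0.99 separated) and UTP7 (0.04 deposited, −0.80 separated) in WT. Quantile normalization moved NOP1 in the mec1 strain to 0.38. No paired analysis was possible because each strain and time has 1 library and the labels give no number that ties samples together. Precision is limited by depth most in WT HU, where a window of these genes held a median of 169 reads, against 481 in mec1 G1.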
